A study of Mus musculus with 6 samples.

Results

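The genes described here handle calcium in the cell, as a calcium sensor, a phospholipase, entry channels and pumps. They were chosen by name for these roles and are *Casr*, *Plcg1*, *Stim1*, *Orai1*, *Trpv4*, *Trpv6*, *Atp2a2*, *Atp2c1*, *Atp2b1* and *Atp2b4*, 10 of the 24982 genes listed in the RNA-seq files. All 10 symbols were found.

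RNA-seq compared 3 libraries of KSFM-Ca2+ cells with 3 libraries of DKSFM cells, both lines being untreated keratinocytes from the neonatal skin of C57BL/6 mice. The KSFM-Ca2+ cells were derived and kept in a keratinocyte medium with 0.06 mM calcium. The DKSFM cells descend from KSFM-Ca2+ cells that survived a move to a defined medium with 0.15 mM calcium. The files hold the mean read coverage per base of each gene to 1 decimal. Because the media differ in more than calcium and the DKSFM cells passed through a survival step, the effects of calcium, of the other medium components and of selection cannot be told apart here. What a replicate was is not given in the sources used here, so p-values measure the spread between these libraries, which may be technical. As a measure of depth, the KSFM-Ca2+ libraries held a total coverage over all genes of 1601676, 1238411 and 1057750, and the DKSFM libraries of 1174348, 1239438 and 1170675. Coverage was therefore normalized between libraries, and every level below is a normalized coverage per base, which allows genes of different length to be set side by side.

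Extracellular calcium is a main signal for keratinocytes to leave the basal layer and differentiate. The calcium-sensing receptor at the cell surface and growth factor receptors activate phospholipases C, which make the messenger that empties calcium from the endoplasmic reticulum, and the loss of stored calcium is then answered by entry through the plasma membrane. Pumps return calcium to the endoplasmic reticulum and the Golgi or expel it from the cell, and mutations of the human genes for SERCA2 and SPCA1, the pumps of these stores, cause Darier disease and Hailey-Hailey disease, in which keratinocytes lose adhesion.

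Both lines carried keratinocyte transcripts. The 6 keratinocyte markers, led by *Krt14*, summed to 17432, 17845 and 17579 in the KSFM-Ca2+ libraries and 43221, 39402 and 43589 in the DKSFM libraries. Of the 6, 5 rose, while *Cdh1* fell slightly (log2 fold change -0.13). The paper, by qPCR, reported increased *Cdh1* expression in the DKSFM-adapted cells. The 6 suprabasal markers, of which *Krtdap* was the most covered in KSFM-Ca2+ cells and *Sbsn* in DKSFM cells, summed to 207, 201 and 207 against 931, 1056 and 919. *Sbsn* carried most of that rise, at 58.5, 54.3 and 61.5 against 781, 830 and 774. Of the 5 tested 3 rose and 1 fell. *Krtdap* did not pass, and the gene that fell was *Ivl* (log2 fold change -0.66). Of 8 fibroblast markers, 7 were listed at 0 in every library, *Col1a1*, *Col1a2*, *Col3a1*, *Pdgfrb*, *Dcn*, *Lum* and *Thy1*, and the list's sum was at most 2.34. The melanocyte genes *Dct* and *Tyr*, the immune genes *Cd3e* and *Tyrobp* and the endothelial gene *Cdh5* were also at 0. Sums of the melanocyte list, led by *Mitf*, were 3.96, 3.96 and 4.60 against 17.3, 18.7 and 18.3, those of the immune list, led by *Cd68*, 10.8, 11.2 and 12.5 against 13.7, 18.9 and 20.7, and those of the endothelial list, led by *Pecam1*, 2.82, 3.16 and 3.30 against 8.28, 8.29 and 7.42. In the melanocyte, immune and endothelial lists only the leading gene passed the filter on low values described below, and it carried most of the sum. The marker sums differed between the lines, as did the calcium genes below, and their part in the differences was not tested. In such bulk libraries fewer cells of a type and less RNA per cell cannot be told apart.

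Of the 10 genes, 8 passed the filter on low values, a normalized coverage of at least 0.5 in 3 libraries, and *Casr* and *Trpv6* were listed at 0 in all 6 libraries. Of all 24982 listed genes, 12409 passed that filter, and 16081 were above 0 in at least 1 library. *Atp2b4* passed through the DKSFM libraries alone and so had to differ. The other 7 were covered in every library, with a standard deviation of 0.972% to 5.93% of the mean within a line. In the limma fit across genes the 8 passed an adjusted p of 0.01 between the lines, as did 72.6% of the 12409 tested genes, and the libraries of the lines did not overlap in any of the 8, as in 83.3% of tested genes. Without *Atp2b4*, 7 of 7 passed, 7 of 7 did not overlap and 6 were higher in DKSFM cells. Higher in DKSFM cells were 7 of the 8, against 35.5% of tested genes. Lower was 1, *Atp2a2*, against 37.1%. Only *Atp2b4* also passed a 2-fold change, upward, a call held by 13.2% of tested genes, and none passed it downward, against 10.5%. The 8 had a median log2 fold change of 0.48, which does not depend on the size of the *Atp2b4* value, beside -0.0012 over all tested genes. Without *Atp2b4*, the median of the 7 was 0.42, the value of *Orai1*. In wider lists of calcium genes, to which the 10 are compared below, 7 of the 103 tested genes also passed the filter through 1 line alone and had to differ, *Cracr2b* and *Calml3* through DKSFM cells and *Plcb4*, *Trpm3*, *Cacna1b*, *P2rx7* and *Camk4* through KSFM-Ca2+ cells. They are included in the counts and medians of their lists. Counts are also given without them, as are the medians where a median is given. Each list's counts stand beside the same shares of all tested genes, 35.5% higher and 37.1% lower in DKSFM cells.

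**Figure D1:**
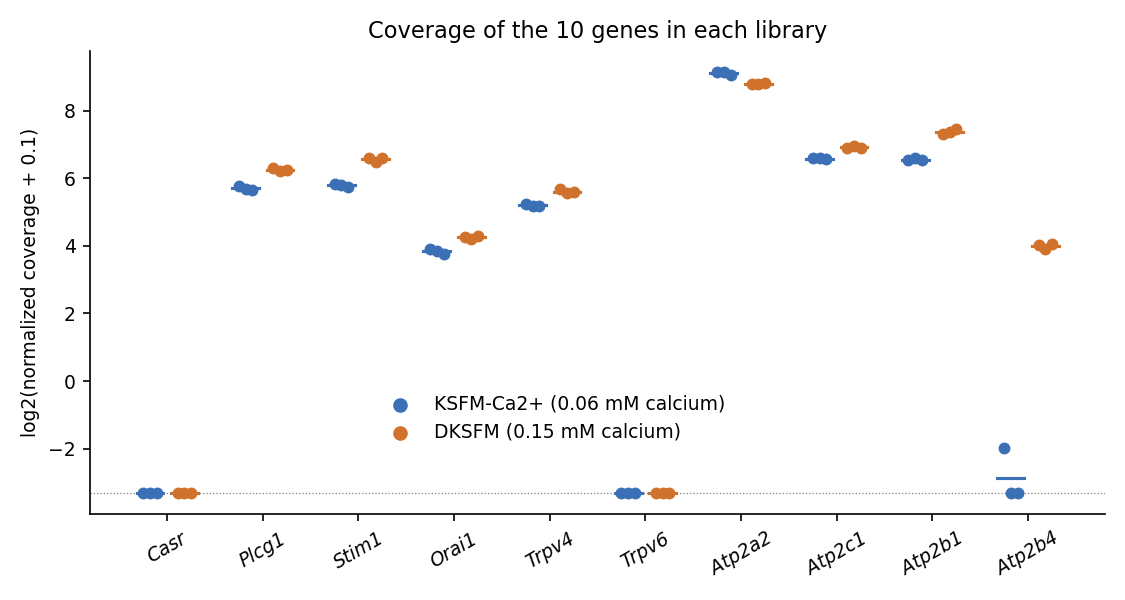
Each point is 1 library, placed by log2(normalized coverage + 0.1), blue for the 3 KSFM-Ca2+ and orange for the 3 DKSFM libraries, with a line at the mean of these log2 values. The dotted line is a coverage of 0, where *Casr* and *Trpv6* lie in both lines and *Atp2b4* lies in 2 of the 3 KSFM-Ca2+ libraries.

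The 3 genes listed at 0 in at least 1 library had few CG dinucleotides in the promoter windows found for them, which for *Atp2b4* leave out its outermost start. RefSeq promoter windows of the GRCm38 assembly were found for 9 of the 10 genes, with 11 windows in all, and for *Atp2a2* there was no entry. In the 250 bases before the start, the dinucleotide CG, which reads the same on both strands, occurred 1 time for *Casr*, 1 time for *Trpv6* and 2 times for *Atp2b4*. The other 6 genes had 7 to 43. The sequences of these 3 genes and, as a CG-rich relative of *Trpv6*, that of *Trpv4* with 22 are shown 5' to 3' on the strand of the gene, with each CG in capitals. The *Casr* window is chr16:36562135-36562384 on the minus strand, its last 7 bases lying in an annotated exon. The *Trpv6* window is chr6:41636406-41636655 and the *Trpv4* window chr5:114658422-114658671, both on the minus strand and directly upstream of the annotated gene. The *Atp2b4* window, chr1:133753748-133753997 on the minus strand, belongs to a start 47.3 kb inside the annotated gene and overlaps exons by 2 bases. No window was found for the outermost start of *Atp2b4*.
Casr: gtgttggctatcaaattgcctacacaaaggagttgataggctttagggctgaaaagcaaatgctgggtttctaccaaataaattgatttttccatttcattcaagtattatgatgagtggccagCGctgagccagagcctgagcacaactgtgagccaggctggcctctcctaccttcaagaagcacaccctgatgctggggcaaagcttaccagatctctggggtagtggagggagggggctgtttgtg
Trpv6: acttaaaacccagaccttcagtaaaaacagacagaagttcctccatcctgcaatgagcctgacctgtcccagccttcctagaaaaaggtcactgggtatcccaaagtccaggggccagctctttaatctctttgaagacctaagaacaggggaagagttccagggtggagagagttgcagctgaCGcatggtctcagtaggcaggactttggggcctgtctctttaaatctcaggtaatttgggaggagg
Atp2b4: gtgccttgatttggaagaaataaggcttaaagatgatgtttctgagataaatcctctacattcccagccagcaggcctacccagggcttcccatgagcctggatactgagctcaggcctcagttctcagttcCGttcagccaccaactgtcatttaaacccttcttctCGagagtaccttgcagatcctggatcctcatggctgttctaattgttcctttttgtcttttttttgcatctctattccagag
Trpv4: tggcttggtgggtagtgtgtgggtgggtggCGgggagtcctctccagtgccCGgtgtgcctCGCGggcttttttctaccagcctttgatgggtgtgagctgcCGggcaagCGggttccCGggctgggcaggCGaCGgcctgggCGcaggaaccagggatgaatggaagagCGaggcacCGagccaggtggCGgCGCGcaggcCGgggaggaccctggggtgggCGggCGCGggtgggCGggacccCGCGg

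GC content was 48.8%, 49.6% and 45.6% in the windows of *Casr*, *Trpv6* and *Atp2b4*, and 72.0% in that of *Trpv4*. At least 1 CG was present in 92.1% of all 32851 mouse windows, whose median was 6, and 81.2% held at least the 2 of *Atp2b4*. The windows of *Atp2b1* lay at the other end with 41 and 43, a number reached by 1.09% and 0.712% of windows. *Stim1* had 31, *Orai1* 30 and *Plcg1* 21. *Atp2c1* had 28 in one window and 7 in the other. Not all of this is sequence upstream of a gene, since the *Atp2b1* window with 43 has 236 bases in annotated exons and the one with 41 has 0 but belongs to a start 0.746 kb inside the gene. The *Atp2c1* windows with 28 and 7 have 17 and 157 exon bases and belong to starts 32.2 and 6.06 kb inside the gene. Exons of any gene, on either strand, covered 79 bases of the *Orai1* window, 13 of that of *Stim1* and 10 of that of *Plcg1*. Across the 18203 listed genes with a window, those with 0 to 3 CG passed the filter on low values in 12.4% of cases, those with 4 to 11 in 43.5%, those with 12 to 20 in 78.9% and those with 21 to 56 in 83.3%. The class with the fewest held *Casr*, *Trpv6* and, by its 1 window inside the gene, *Atp2b4*. In that class 71.5% of genes were listed at 0 in every library, as *Casr* and *Trpv6* were and *Atp2b4* was not. Of the genes with 21 to 56, 8.33% were.

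**Figure D2:**
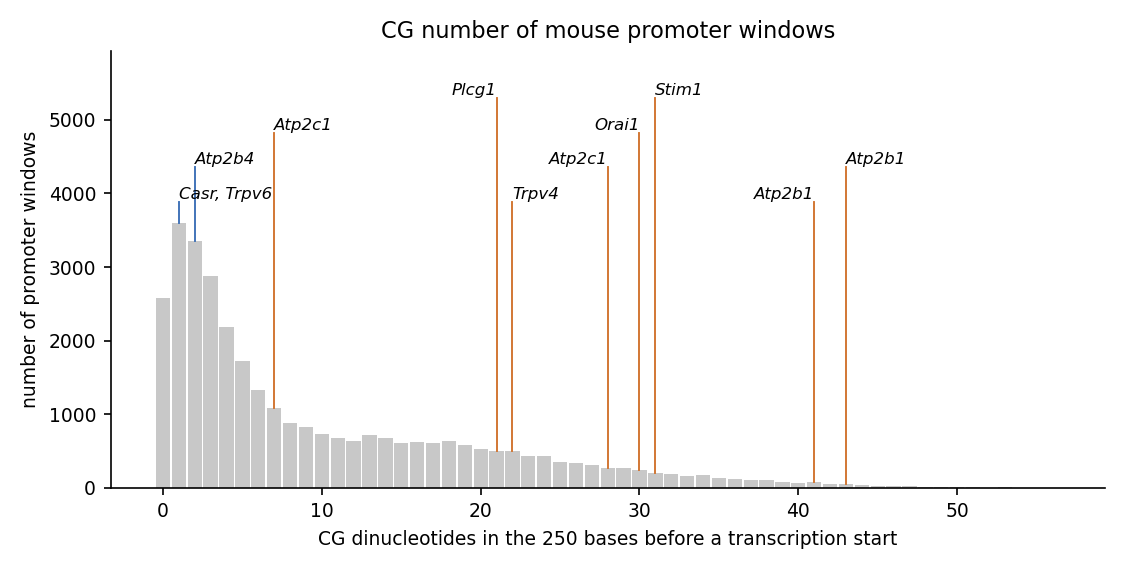
Grey bars give the number of mouse promoter windows, of 32851, by the number of CG dinucleotides in the 250 bases before the start. Vertical lines mark the windows of the named genes, blue for the 3 genes with 1 or 2 and orange for the genes with 7 to 43.

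*Casr*, the calcium-sensing receptor, was listed at 0 in all 3 KSFM-Ca2+ and all 3 DKSFM libraries. With values rounded to 0.1, a library at 0 could still hold a few reads, since 1 step stands for about 5.06 reads of 85 bases over a *Casr* transcript of median length. A set of 9 genes used by nearly every cell was above 0 in every library, at no less than 15.5. This does not bear on zeros of genes with low coverage. Of the 24982 listed genes, 16081 were above 0 in at least 1 library. The related receptor *Gprc6a* was listed at 0 as well.

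*Plcg1* encodes phospholipase C gamma 1, which growth factor receptors activate. Its coverage was 54.3, 50.9 and 50.5 in the KSFM-Ca2+ libraries and 77.9, 74.1 and 75.8 in the DKSFM libraries. Every DKSFM library was above every KSFM-Ca2+ library, by a wide margin compared with the spread within each line. The mean rose 1.46 times, with a log2 fold change of 0.55 ± 0.041 (SE, adjusted p = 4.25e-06). Its close relative *Plcg2* moved the other way, from 44.5, 41.2 and 38.7 to 34.5, 33.9 and 34.3, a log2 fold change of -0.27 ± 0.054 (SE, adjusted p = 0.00164). The gap between both gamma genes was thereby wider in DKSFM cells. In a wider list of 19 receptor, G protein and phospholipase C genes 12 were tested, 5 rose, 4 fell and 3 did not pass, and their median log2 fold change was -0.01. Without *Plcb4* it was 5 up and 3 down of 11, with the median on the other side of 0 at 0.03. By the mean over all 6 libraries the most covered of that list was *Dgka*, which stood under *Gnai2* in the KSFM-Ca2+ line, and which encodes a diacylglycerol kinase that removes the second product of phospholipase C. It went from 144, 138 and 133 to 297, 297 and 294, with a log2 fold change of 1.10 (adjusted p = 2.58e-08).

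*Stim1* encodes the sensor of calcium in the endoplasmic reticulum. Its coverage was 57.0, 55.8 and 53.7 in KSFM-Ca2+ cells and 96.6, 89.9 and 96.2 in DKSFM cells. The DKSFM libraries were all higher, without overlap, at 1.70 times the mean of the KSFM-Ca2+ libraries. The log2 fold change was 0.76 ± 0.041 (SE, adjusted p = 6.53e-07). *Orai1*, the pore subunit that STIM1 opens, stood at 15.0, 14.2 and 13.3 against 19.2, 18.2 and 19.5. Here too the lines did not overlap, but the rise was smaller, 1.34 times, with a log2 fold change of 0.42 ± 0.061 (SE, adjusted p = 0.00029).

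Channel and sensor could also be compared within a library, where scaling plays no role. The coverage of *Orai1* relative to *Stim1* was 0.263, 0.255 and 0.248 in KSFM-Ca2+ cells and 0.199, 0.202 and 0.203 in DKSFM cells. Each DKSFM library had less *Orai1* per *Stim1* than each KSFM-Ca2+ library. The difference in mean log2 ratio was -0.35 (exact two-sided permutation p = 0.10), and 0.10 is the smallest p that 3 libraries against 3 can give. Per base of gene the sensor was therefore several times more covered than the channel in both lines.

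Of the 11 other genes of store-operated entry 10 were tested, 4 rose, 4 fell and 2 did not pass, and the median log2 fold change was 0.01. Without *Cracr2b*, which had to differ, 3 of 9 rose and 4 fell, and the sign of the median turned, to -0.13. The other channel genes were *Orai2*, at 24.0, 23.8 and 25.8 against 27.7, 27.7 and 27.03 (log2 fold change 0.16, adjusted p = 0.0125, not past the threshold), and *Orai3*, at 3.66, 3.66 and 3.07 against 6.90, 6.99 and 7.42 (log2 fold change 1.02, adjusted p = 1.97e-05). *Orai2* thus exceeded *Orai1* in both lines, and *Orai3* was the least covered of the 3. *Orai2* did pass the threshold under at least 1 other scaling. *Stim2*, the second sensor, rose less than *Stim1*, from 54.2, 50.1 and 54.5 to 64.9, 62.1 and 65.7 (log2 fold change 0.28, adjusted p = 0.000484). *Cracr2b*, which encodes a regulator of ORAI channels, was listed at 0 in 2 KSFM-Ca2+ libraries and had a normalized coverage of 0.0762 in the third, against 11.7, 13.5 and 12.7. *Cav1*, the main protein of caveolae, was the most covered of the list and rose from 492, 471 and 469 to 1283, 1209.7 and 1275, with a log2 fold change of 1.40 (adjusted p = 9.09e-09). *Trpc1* fell from 3.51, 4.05 and 3.89 to 1.17, 1.299 and 1.17, with a log2 fold change of -1.58 (adjusted p = 4.77e-06).

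*Trpv4*, a calcium-permeable channel opened by warmth, swelling and lipids, had coverages of 37.7, 35.8 and 36.2 in KSFM-Ca2+ cells and of 50.7, 46.8 and 48.2 in DKSFM cells. The lowest DKSFM library stood above the highest KSFM-Ca2+ library. The mean was 1.33 times higher, with a log2 fold change of 0.41 ± 0.044 (SE, adjusted p = 4.28e-05). *Trpv6*, the calcium-selective channel known from epithelia that absorb calcium, was listed at 0 in all 6 libraries, and so was its closest relative *Trpv5*. No ratio of *Trpv6* to *Trpv4* could be formed.

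*Trpv4* was the best covered of the TRPV genes in both lines. Only *Trpv3*, a keratinocyte channel opened by warmth, was tested beside it, and it fell from 4.19, 4.05 and 3.89 to 1.17, 1.499 and 0.954, with a log2 fold change of -1.69 (adjusted p = 2.29e-05). The 2 TRPV genes of these cells thus differed between the lines in opposite directions. In the whole list of 25 other TRP and mechanosensitive channel genes, 14 were at 0 in every library, 8 were tested, 2 rose and 5 fell, at a median log2 fold change of -0.24, beside 35.5% and 37.1% of all tested genes. Without *Trpm3*, which had to differ, 2 of 7 rose and 4 fell, at a median of -0.23. Its most covered gene was *Trpm7* at 55.3, 55.2 and 52.9 against 46.0, 47.6 and 45.8, which was lower in DKSFM cells (log2 fold change -0.23, adjusted p = 0.000488). *Trpm4* rose from 7.77, 8.21 and 7.79 to 15.3, 16.6 and 16.01 (log2 fold change 1.001, adjusted p = 1.25e-06).

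*Atp2a2* encodes SERCA2, the pump that fills the endoplasmic reticulum. It was the most covered of the 10 genes, at 559, 566 and 535 in KSFM-Ca2+ libraries and 441, 438 and 454 in DKSFM libraries. It was also the only one of the 8 tested genes with lower values in DKSFM cells, and the lines did not overlap. The KSFM-Ca2+ mean was 1.25 times the DKSFM mean, and the log2 fold change was -0.32 ± 0.030 (SE, adjusted p = 2.11e-05).

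*Atp2c1* encodes SPCA1, the calcium and manganese pump of the Golgi. Its values were 95.8, 96.3 and 94.5 against 119, 124 and 118. They were the tightest of the 7 well covered genes in the KSFM-Ca2+ line, and the rise of 1.26 times exceeded that spread. The log2 fold change was 0.33 ± 0.030 (SE, adjusted p = 1.41e-05). The related *Atp2c2*, far less covered, also rose, from 9.68, 9.89 and 9.56 to 14.01, 12.5 and 12.7 (log2 fold change 0.42, adjusted p = 0.000358).

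*Atp2b1* encodes PMCA1, the common plasma membrane pump that expels calcium. Its coverage was 93.0, 96.0 and 91.9 in the KSFM-Ca2+ libraries and 158, 165 and 174 in the DKSFM libraries. Its rise of 1.77 times was the largest among the 7 genes covered in every library, and it did not reach 2-fold. The log2 fold change was 0.82 ± 0.040 (SE, adjusted p = 3.74e-07).

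*Atp2b4* encodes PMCA4, a second plasma membrane pump. It had a normalized coverage of 0.152 in KSFM-Ca2+ replicate 1, where it was listed at 0.2, and was listed at 0 in replicates 2 and 3. In the DKSFM libraries it stood at 16.03, 14.9 and 16.4. All 3 DKSFM libraries were far above all 3 KSFM-Ca2+ libraries, and their SD was 5.07% of their mean. With the rounding of the values taken against the difference, the lowest DKSFM library was at least 77.9 times the KSFM-Ca2+ library with the highest value. In approximate reads, taken from the listed values, this is 14.9 in the 1 KSFM-Ca2+ library that was not at 0 against 1126, 1111 and 1156, for a transcript of median length. The fitted log2 fold change of 6.86 ± 0.35 (SE) depends on the pseudocount and is no measure of size. Its p-value is not given, since the gene had to differ. It was 4.90 with a pseudocount of 0.5. A filter of 0.5 in every library removed the gene and left 0 of 7 past 2-fold.

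The pumps differed in composition, while their sums overlapped. Coverage summed over the 9 calcium pump genes (*Atp2a1* to *Atp2a3*, *Atp2b1* to *Atp2b4*, *Atp2c1* and *Atp2c2*) was 758, 768 and 732 against 749, 754 and 775, with no order between the lines. The reticulum pumps held 73.8%, 73.7% and 73.2% of that sum in KSFM-Ca2+ cells and 58.9%, 58.1% and 58.5% in DKSFM cells. The plasma membrane pumps held 12.3%, 12.5% and 12.6% against 23.3%, 23.9% and 24.6%. The Golgi pumps held 13.9%, 13.8% and 14.2% against 17.8%, 18.1% and 16.9%. All 3 shares differed without overlap, the reticulum share being lower and the others higher in DKSFM cells, and since shares sum to a whole, they are not independent of each other. Within the plasma membrane family *Atp2b4* made up 9.19%, 8.27% and 8.63% in the DKSFM libraries and at most 0.164% in the KSFM-Ca2+ libraries, so that most of the family's rise in summed coverage, from 93.1, 96.0 and 91.9 to 174, 180.0 and 190.5, came from *Atp2b1*. *Atp2b2* and *Atp2b3* were listed at 0 throughout, and *Atp2a1* and *Atp2a3* stayed under the filter.

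**Figure D3:**
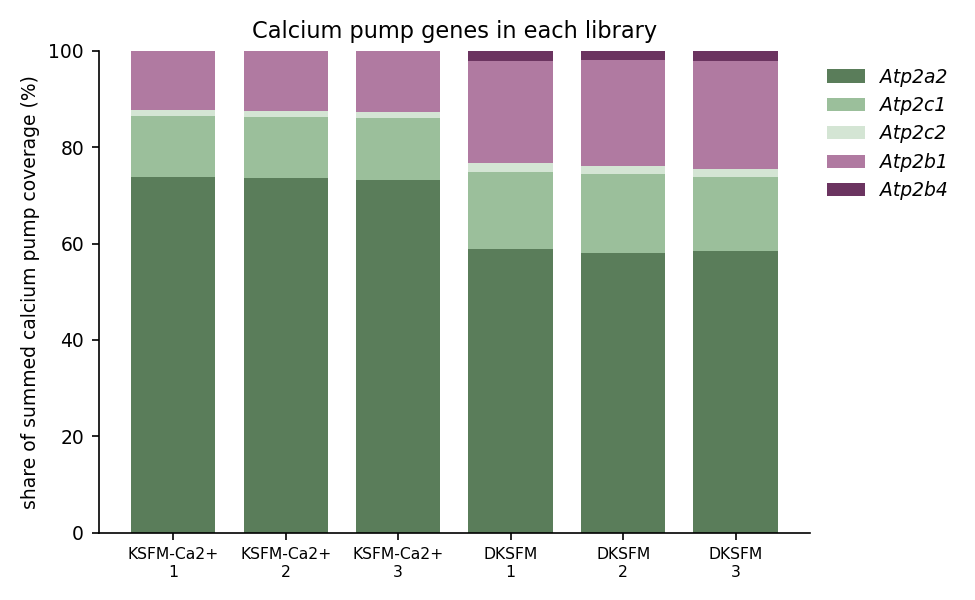
Each bar is 1 library, divided by the percent of summed calcium pump coverage held by each gene, with *Atp2a1* and *Atp2a3* too low to be seen and *Atp2b2* and *Atp2b3* at 0. The *Atp2a2* part is smaller in the 3 DKSFM libraries (58.5% on average against 73.5%), and the *Atp2b1* part is larger (21.8% against 12.4%).

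Ratios within a library gave the same order. *Atp2b1* relative to *Atp2a2* was 0.166, 0.170 and 0.172 in KSFM-Ca2+ cells and 0.359, 0.377 and 0.384 in DKSFM cells, a difference of 1.14 in mean log2 ratio (exact two-sided permutation p = 0.10). *Atp2a2* relative to *Atp2c1* was 5.84, 5.88 and 5.66 against 3.69, 3.54 and 3.83, a difference of -0.65 (exact two-sided permutation p = 0.10). The plasma membrane pump thus gained on the reticulum pump, and the Golgi pump did too. *Atp2b4* relative to *Atp2b1* was 0.101, 0.0902 and 0.0944 in DKSFM cells, and in KSFM-Ca2+ cells it was 0.00164 in replicate 1 and 0 in the others. The last ratio had to differ, since *Atp2b4* passed the filter through the DKSFM libraries alone. Of the 5 pairs chosen 4 could be formed, and without this one the lines did not overlap in 3 of 3, where 83.3% of single tested genes did not overlap.

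Pump regulators and exchangers gave context. Of 12 further pump and regulator genes 6 were tested, 3 rose, 2 fell and none reached 2-fold, and their median log2 fold change was 0.20. The most covered was *Bsg*, which encodes basigin, a partner of plasma membrane pumps, at 721, 733 and 768 against 1053, 1029 and 1024 (log2 fold change 0.48, adjusted p = 1.75e-06). The small SERCA inhibitors *Pln* and *Sln* were listed at 0 in every library. A list of 13 genes held exchangers and other genes of calcium handling. Of these 12 were listed and 5 tested, 3 rose and 1 fell. The exchanger genes among the 5 were *Slc24a3* and *Slc8b1*, and the others were *Tmbim* genes, which are not exchangers. *Slc24a3*, a potassium-dependent exchanger that expels calcium, rose from 8.08, 9.59 and 6.73 to 47.9, 46.2 and 44.2, 5.67 times on average (log2 fold change 2.50, adjusted p = 2.67e-07). *Slc8b1*, the mitochondrial sodium-calcium exchanger, rose from 40.0, 41.4 and 36.5 to 84.5, 97.1 and 91.3 (log2 fold change 1.21, adjusted p = 6.05e-07). *Tmbim6* was the most covered of that list and fell from 1168, 1159.7 and 1203 to 838, 819 and 864 (log2 fold change -0.49, adjusted p = 1.37e-06).

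Other genes encode proteins that bind calcium in the stores, most of them in the endoplasmic reticulum and some, such as *Nucb1*, in the Golgi. Of 15 such genes 13 were tested, 3 rose (*Casq2*, *Nucb1* and *Rcn1*, the last with an adjusted p of up to 0.0158 under other scalings, not past the threshold), 9 fell and 1 did not pass, beside 35.5% of all tested genes that rose and 37.1% that fell, with a median log2 fold change of -0.57. *Hspa5*, the chaperone BiP, fell from 1829, 1888 and 1829 to 539, 508 and 536 (log2 fold change -1.81, adjusted p = 1.96e-09). *Hsp90b1*, the chaperone GRP94, fell from 776, 767 and 748 to 350.2, 309.9 and 324 (log2 fold change -1.22, adjusted p = 7.53e-08). *Casq2*, a calsequestrin known from muscle, went the other way, from 59.4, 55.7 and 56.6 to 149, 137 and 148 (log2 fold change 1.34, adjusted p = 4.08e-08). Several of these genes are chaperones and serve protein folding as well as calcium storage. Of 12 genes for store release channels and their regulators 8 were tested, 4 rose and 2 fell. The inositol trisphosphate receptor gene *Itpr1* fell from 2.21, 2.18 and 2.24 to 0.531, 0.799 and 0.636 (log2 fold change -1.63, adjusted p = 3.87e-05), and *Ahcyl1*, which encodes a regulator of these receptors, was the most covered at 251, 245 and 264 against 371, 387 and 388 (log2 fold change 0.59, adjusted p = 1.15e-06).

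**Figure D4:**
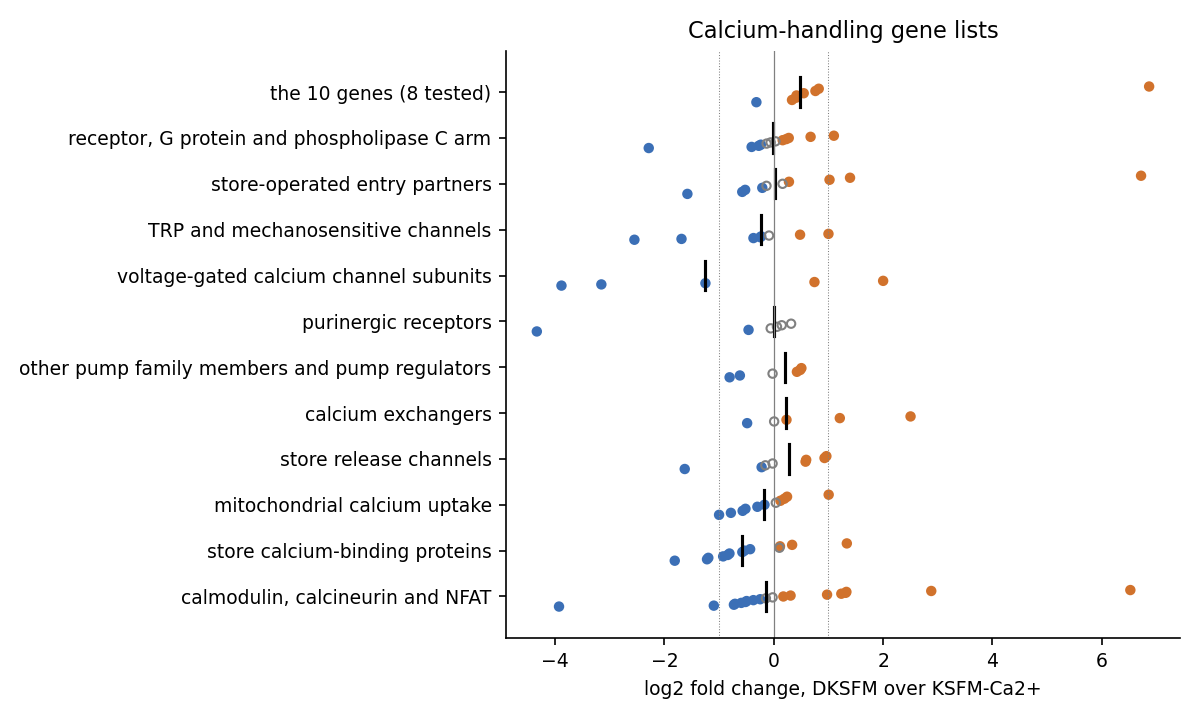
Each point is a tested gene, placed by its log2 fold change and grouped by list, with orange and blue for higher and lower in DKSFM cells at an adjusted p under 0.01, open circles for the rest, a black bar at the list's median and dotted lines at 2-fold. Of the 8 tested genes of the top row 7 lie above 0, and *Atp2b4* is the point at 6.86.

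The order of the 10 genes by mean level was similar in both lines. In KSFM-Ca2+ cells it ran *Atp2a2*, *Atp2c1*, *Atp2b1*, *Stim1*, *Plcg1*, *Trpv4*, *Orai1* and *Atp2b4*, followed by *Casr* and *Trpv6* at 0. *Atp2c1* and *Atp2b1* overlapped there between libraries, with means of 95.5 ± 0.929 and 93.6 ± 2.13 (SD, n = 3), and so did *Stim1* and *Plcg1*, with 55.5 ± 1.68 and 51.9 ± 2.10 (SD, n = 3). Within each KSFM-Ca2+ library, however, *Atp2c1* stood above *Atp2b1* and *Stim1* above *Plcg1*. *Atp2b4* overlapped the genes at 0. In DKSFM cells *Atp2b1* passed *Atp2c1*, at 166 ± 7.86 against 121 ± 2.81 (SD, n = 3), and *Stim1* parted from *Plcg1*, at 94.2 ± 3.73 against 76.0 ± 1.90 (SD, n = 3). No neighbours among the 8 covered genes overlapped in that line. *Orai1* and *Atp2b4*, the lowest of them, had means of 19.0 ± 0.693 and 15.8 ± 0.801 (SD, n = 3). Among all genes above 0 in a line, *Atp2a2* lay at percentile 97.6 of KSFM-Ca2+ cells and 97.0 of DKSFM cells, *Orai1* at 48.4 and 53.0, and *Atp2b4* at 5.93 and 49.8.

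Among the 103 tested genes of the wider lists, those nearest to *Atp2b4* in profile were *Cracr2b*, *Calml3* and *Nfatc2* by Euclidean distance over the 6 libraries, on log2 values centred on the KSFM-Ca2+ mean. *Cracr2b* and *Calml3* were, like *Atp2b4*, near or at 0 in KSFM-Ca2+ cells, so distances to *Atp2b4* depend on the pseudocount. With the pseudocount of 0.1 they were 0.54, 1.42 and 6.98, so that *Nfatc2* was among the nearest by rank but not close. Nearest to *Atp2a2* were *Plcg2*, *Nfatc3* and *Piezo1*, at 0.14, 0.15 and 0.15.

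The 10 genes lie on 8 chromosomes of mm10, and 3 of them share chromosome 5, where *Atp2a2* (122453513 to 122502225) and *Orai1* (123015074 to 123030456) start 0.513 Mb apart and *Trpv4* (114622152 to 114658421) starts 7.84 Mb from *Atp2a2*. *Atp2a2* fell and *Orai1* rose, and their windows of 10 Mb to each side are almost the same. The 180 tested genes around *Atp2a2* had a median log2 fold change of 0.11 and the 181 around *Orai1* of 0.10. *Atp2b4*, on chromosome 1 at 133699457 to 133801041, rose in a region where 54 of 91 tested neighbours fell and 14 rose, with a median of -0.44. Around *Stim1*, on chromosome 7 at 102267806 to 102437319, 66 of 115 fell and 16 rose, with a median of -0.29. Over all tested genes 37.1% fell and 35.5% rose. Around the other tested members the medians lay between -0.06 and 0.12. The paper reported tetraploid and hyperdiploid chromosome numbers in the KSFM-Ca2+ lines. Chromosome copies were not examined here, and their part in these values was not tested. *Aste1* and *Zhx3*, on the opposite strands of *Atp2c1* and *Plcg1*, were covered at up to 15.0 and 4.57, and *Mir6903*, within *Atp2b4* on the same strand, at up to 0.849. The libraries were directional and the authors aligned them with a strand setting, but the step that made the coverage files is not named in the sources used here.

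**Figure D5:**
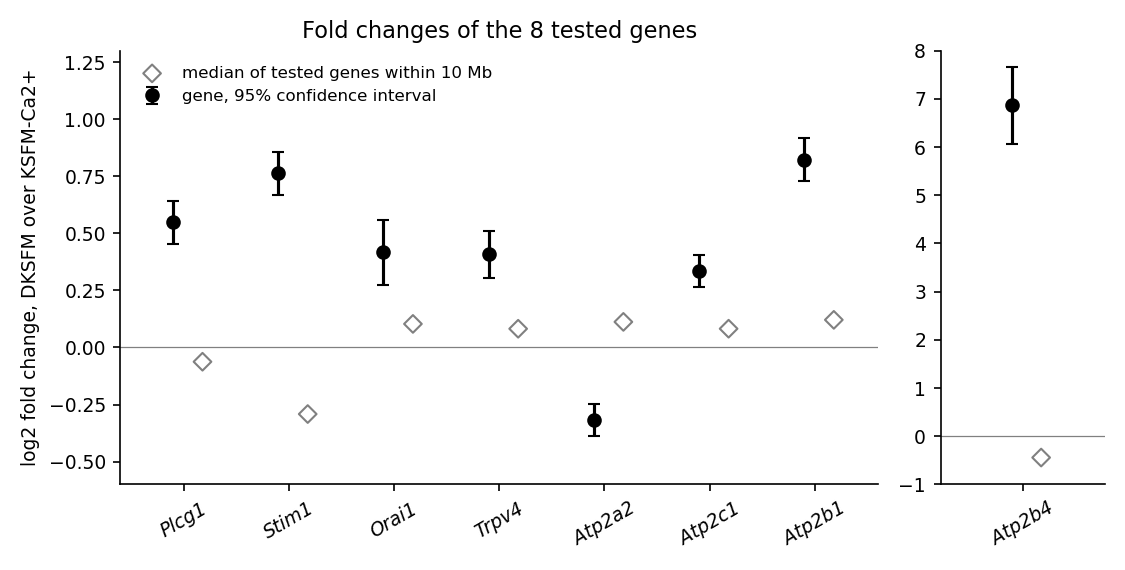
Filled points are log2 fold changes (DKSFM over KSFM-Ca2+) with 95% confidence intervals from 3 libraries a line, and open diamonds are the median of the tested genes within 10 Mb. *Atp2b4* has an axis of its own, and *Atp2a2* is the only gene under 0.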

How the data were processed

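RNA-seq libraries of 3 KSFM-Ca2+ and 3 DKSFM replicates were used, grouped by the sample titles. Per the labels and the study's methods, the authors used bcl2fastq, aligned single reads of 85 bases to mm10 with STAR and compared the lines with DESeq2. For each gene the files deposited by the authors give a signal in the form of average coverage at each base, rounded to 1 decimal and not scaled to library size. How it was computed, and why the files of KSFM-Ca2+ replicate 3 and all DKSFM replicates are marked as combined, is not given in the sources used here.

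Coverage is not a count, so no count model was used here. Values were scaled by trimmed means of M values without weights (30% of M and 5% of A trimmed), kept where at least 3 libraries reached 0.5, and taken as log2(normalized coverage + 0.1). Fold changes are on that scale, which understates the change of low genes. limma 3.58.1 in R 4.3.3 was fitted with an intensity trend over all 12409 kept genes, with Benjamini-Hochberg adjustment over them and thresholds of an adjusted p of 0.01 and 2-fold. Ratios were tested by exact two-sided permutation. The rounding step of 0.1 limits the precision of low values, and approximate reads were taken from coverage, median coding transcript length and read length. The procedure was tested on simulated data. Python 3.11.15 and matplotlib 3.10.9 were used.

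The members and the 11 wider lists were chosen with earlier results of these data known. The wider genes named are the most covered of each list (mean over all 6 libraries) and up to 3 with the largest change past both thresholds and, in the line where they are higher, a mean of 2 or more, the markers, and the 3 genes nearest to *Atp2b4* and *Atp2a2*. *Plcg2*, *Gprc6a*, *Orai2*, *Orai3*, *Stim2*, *Trpv5*, *Atp2c2*, the other pump genes, *Pln*, *Sln* and the genes overlapping a member were named as relatives or neighbours, some after their values were seen. *Nucb1*, *Rcn1*, *Gnai2*, *Plcb4*, *Trpm3*, *Cacna1b*, *Camk4*, *Calm3*, *Esyt1* and *Sdf4* were named after their values were seen. The CG counts of promoters were chosen after the levels were seen. Of 173 wider genes, 1 is not analysed here. Positions came from GENCODE M21 (mm10), matched by symbol, and promoter windows from RefSeq (GRCm38). Protein sequences were not used here. Alternatives were other scalings, filters and pseudocounts, no trend, a replicate block, an adjusted p of 0.05, each library left out, and the libraries marked as combined.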

Additional observations from a re-analysis of the deposited data

How the results depend on the processing

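The 8 tested genes kept their direction and their side of the adjusted p of 0.01 in each of the 127 fits in which they could be tested, over 16 alternative settings, with adjusted p at most 0.00589. The count of genes past an adjusted p of 0.01 was 8 in each setting except the filter of 0.5 in every library, which left out *Atp2b4* and gave 7. The count past 2-fold was 1, and 0 under that filter, which removes the gene by construction. Since *Atp2b4* passed the filter on low values through the DKSFM libraries alone, its calls are no test of a difference. With each library left out, the log2 fold change of *Atp2b4* ranged from 6.64 to 7.23, and it was 4.90 with a pseudocount of 0.5 and lower with 1. Its log2 ratio to *Atp2b1* differed by 6.04 between the lines and by 4.08 with a pseudocount of 0.5. The wider lists had 29 of 103 tested genes past both thresholds, and 20 to 32 genes under the alternatives. Of the 29, 15 rose and 14 fell, beside 13.2% and 10.5% of all tested genes. The 29 include the 7 genes that passed the filter through 1 line alone and had to differ. Without pseudocount, the ratio of *Atp2b4* to *Atp2b1* gave no value.

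With the replicate number as a block, 8 genes passed the adjusted p of 0.01, 1 passed 2-fold as well, and 29 genes of the wider lists passed both, as without it. Libraries sharing a number did not deviate together, with correlations of -0.0051, 0.024 and -0.0061 across genes, so the numbers were not taken as pairs. With the libraries marked as combined alone, which leave 1 KSFM-Ca2+ library assumed to vary like the DKSFM libraries, the counts were 8, 1 and 27. Of the 93 genes called in the members and lists together, 93 kept their direction under 3 other scalings. The call was kept by 91, the exceptions being *Rcn1* and *Calm3*. *Orai2*, *Esyt1* and *Sdf4*, not called here, passed under at least 1 of these scalings. Values near the rounding step of 0.1, such as those of *Atp2b4* in KSFM-Ca2+ cells, rest on few reads. Coverage gives no counting error.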

Other observations

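Further lists of calcium genes are given here by their counts, beside 72.6% of all tested genes past an adjusted p of 0.01, 35.5% higher and 37.1% lower in DKSFM cells. Of 18 voltage-gated calcium channel subunit genes 9 were listed at 0 in every library and 5 were tested, 2 rose and 3 fell, or 2 and 2 of 4 without *Cacna1b*, which passed the filter through KSFM-Ca2+ cells alone. The most covered was *Cacnb3*, a cytoplasmic beta subunit, at 62.8, 62.3 and 59.1 in KSFM-Ca2+ cells and 101, 105 and 103 in DKSFM cells (log2 fold change 0.74, adjusted p = 3.00e-07). The pore subunit gene *Cacna1g* rose from 0.762, 0.989 and 1.06 to 4.03, 3.997 and 4.03 (log2 fold change 2.001, adjusted p = 3.67e-06), and *Cacna2d1*, an accessory subunit, fell from 4.801, 5.34 and 7.20 to 0.637, 0.799 and 0.318 (log2 fold change -3.15, adjusted p = 1.64e-05). Of 14 purinergic receptor genes 6 were tested. Without *P2rx7* 5 were tested, 0 rose and 1 fell. With it, none rose and 2 fell. These were *P2rx4*, at 86.4, 90.7 and 89.6 against 63.8, 62.3 and 67.7 (log2 fold change -0.46, adjusted p = 1.31e-05), and *P2rx7*, at 3.28, 4.45 and 3.19 against 0.106, 0.200 and 0, which passed the filter through the KSFM-Ca2+ libraries alone and so had to differ.

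All 11 genes of mitochondrial calcium uptake were tested, 4 rose and 6 fell. *Vdac1*, the most covered, was at 449, 447 and 470.2 against 478, 448 and 478 and did not pass (adjusted p = 0.341), and *Mcur1* rose from 6.55, 6.33 and 6.14 to 12.6, 12.9 and 12.9 (log2 fold change 1.005, adjusted p = 1.27e-06). Of 23 genes of calmodulin, calcineurin and NFAT 19 were tested, 8 rose and 9 fell, or 7 and 8 of 17 without *Calml3* and *Camk4*, which passed the filter through 1 line alone. *Calm2*, the most covered, fell from 1786, 1801 and 1857 to 1279, 1313 and 1270.0 (log2 fold change -0.50, adjusted p = 7.98e-07). *Calml3*, an epithelial relative of calmodulin, was listed at 0 in every KSFM-Ca2+ library and was at 8.92, 12.2 and 6.89 in DKSFM cells. *Nfatc2* rose from 0.838, 0.692 and 0.826 to 6.37, 5.40 and 7.63 (log2 fold change 2.88, adjusted p = 6.43e-07), and *Camkk1* from 7.39, 8.11 and 6.61 to 18.2, 17.9 and 19.8 (log2 fold change 1.33, adjusted p = 1.86e-06).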
